A study of Mus musculus with 6 samples.

Results

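The chemokine genes Cxcl1, Cxcl2, Cxcl9, Cxcl10, Cxcl12, Cxcl14, Cxcl16 and Cx3cl1 and the receptor gene Cxcr6 were examined in whole kidneys of young and old mice. The 9 genes were taken by name, through the RefSeq transcript that each array probe is annotated to. They had 12 of 55681 non-control probes, and they are 9 of the 20284 genes that 26762 of those probes named. Cx3cl1 belongs to the CX3C class and is not itself a CXC chemokine. The mice were C57BL/6 males, an inbred strain, and RNA came from 3 kidney samples at 2 months of age (young) and 3 at 20 months (aged), with no treatment or altered gene named. Every sample was read on an Agilent array in a single colour. Independent RNA preparations are described for both ages, but not the number of animals, and the p-values here therefore reflect variation among these 6 preparations, part of which may be technical.

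Chemokines are small secreted proteins that bind G protein-coupled receptors on leukocytes and steer their migration. Cxcl16 and Cx3cl1 are made as transmembrane proteins on a mucin stalk, hold cells that carry their receptors, and become soluble after cleavage by the proteases Adam10 and Adam17. Cxcr6, the receptor of Cxcl16, is found on activated and tissue-resident T cells, natural killer T cells and some innate lymphoid cells. Cxcl9 and Cxcl10 are induced by interferon gamma and attract cells with the receptor Cxcr3. Cxcl1 and Cxcl2 attract neutrophils through Cxcr2. Cxcl12 acts on Cxcr4 and is bound by the scavenging receptor Ackr3. Cxcl14 is made by many epithelia under resting conditions.

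Levels are given as log2 of the processed signal relative to the 75th percentile of the same array, so 0 is the 75th percentile. A change is the aged mean minus the young mean on that log2 scale, and the error after ± is its standard error in the limma fit. On young replicates 1, 2 and 3, 72.9%, 69.0% and 55.3% of probes were well above background. On aged replicates 1, 2 and 3 the shares were 62.8%, 55.7% and 46.3%, each lower than on the young array of the same number. The means were 65.7% and 54.9% (two-sided exact permutation p = 0.3, without pairing arrays of the same number). The lowest processed signal called well above background was 32.6 to 69.2 on young and 72.6 to 155 on aged arrays. A dim probe therefore needed more signal on an aged array to be called above background. No spot was saturated. The 6 arrays lay on 1 slide, young samples in the first row and aged samples in the second, and the effect of the row cannot be told apart from that of age. All 12 tubule markers, among them Lrp2, Umod and Aqp2, were above background on all 6 arrays. A summed level adds the unlogged levels of a list's tested genes, so the brightest probes weigh most in it. Young replicate 1 stood apart in urothelium genes, whose summed level was 4.08 times the array's 75th percentile against 0.734 and 0.661 on the other young arrays. It was also the lowest young array for 9 of 11 tested probes of the 9 genes, against 32.5% of all genes. Without it, Cxcr6 was still the only one of the 9 genes called.

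Of the 9 genes, 8 could be tested, and Cxcr6 alone passed the threshold, a limma p under 0.05 after Benjamini-Hochberg adjustment over all genes. It was higher in aged kidney. Of all 14545 genes tested 3.38% passed, made up of 1.98% that were higher in aged and 1.40% that were lower. Changes were above 0 for 7 of the 8 genes and below 0 for Cxcl12. Their median was 0.13, beside a median of -0.014 over all genes. Young and aged arrays did not overlap for 3 of the 8, Cxcr6, Cxcl10 and Cxcl14, each with the aged arrays higher. For all genes that share was 21.9%, and 10.4% with the aged arrays higher. Those 3 genes also had an unadjusted p under 0.05, as did 17.1% of all genes, 7.96% with the aged level higher. A rule of unadjusted p under 0.05 with at least a 2-fold change called 0 of the 8 and 2.30% of all genes.

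**Figure D1:**
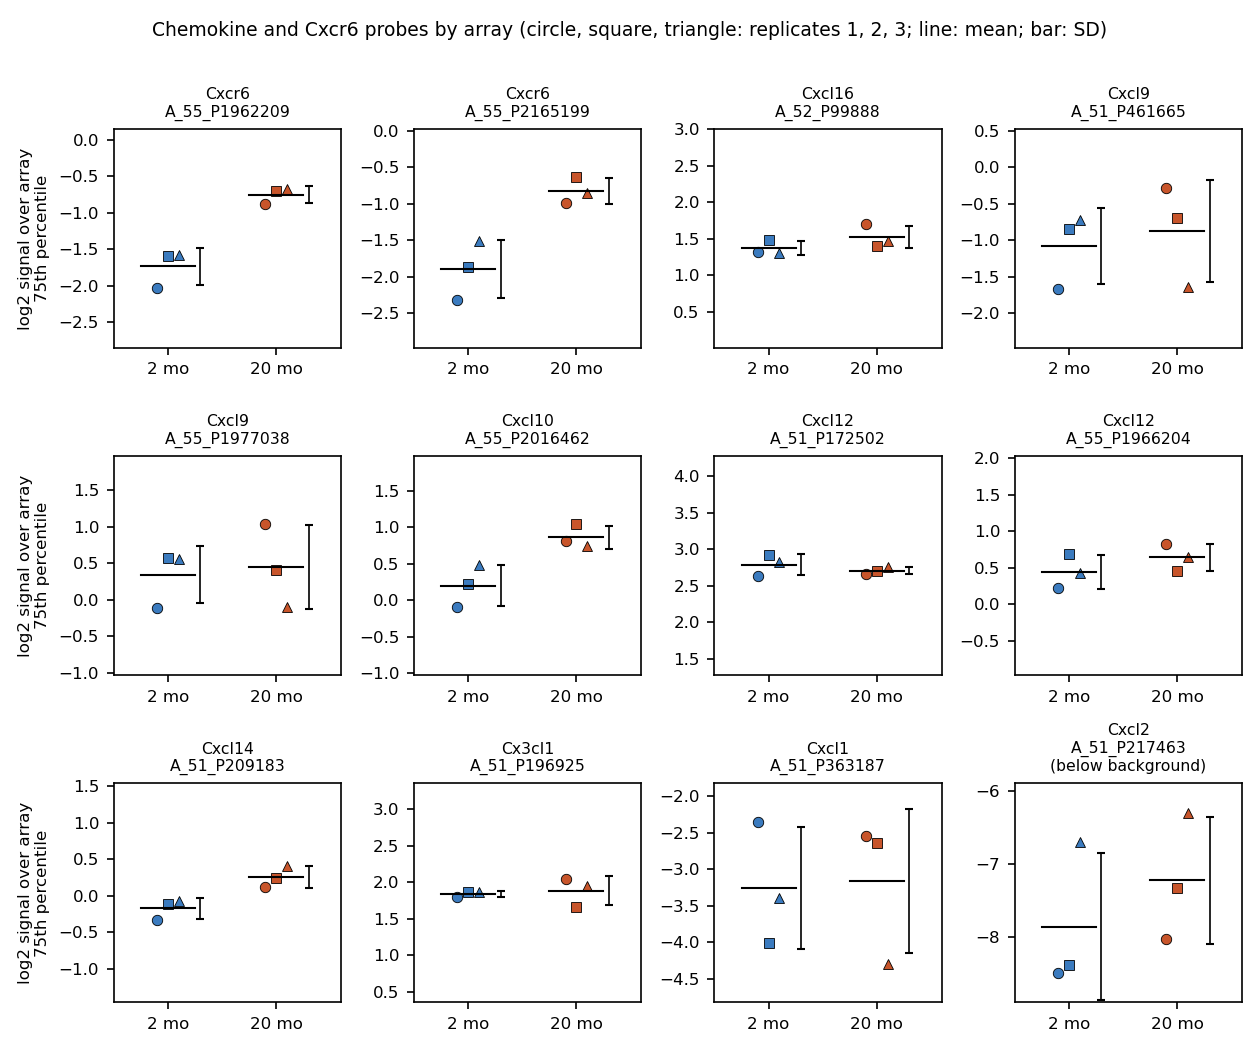
Normalised log2 signal (vertical axis, relative to the array's 75th percentile) of each of the 12 probes on the 3 arrays at 2 months and the 3 at 20 months, with the mean as a line and the SD as a bar; every panel spans 3 log2 units. Both probes of Cxcr6 and those of Cxcl10 and Cxcl14 have all aged arrays above all young arrays, while Cxcl1 and Cxcl9 spread widely within each age.

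Promoter sequences of 5 of the genes are shown here as a description only. They are the 250 bases before the annotated start, from RefSeq on build GRCm38.p6, given 5′ to 3′ in the direction of transcription. RefSeq promoters were matched for 8 of the 9 genes, all but Cxcl16. Capitals mark matches, on either strand, to the interferon-stimulated response element (GAAA, any 2 bases, GAAA), the STAT site (TTC, any 3 bases, GAA) or the NF-kB consensus. The first belongs to the receptor whose signal rose, the next pair to the Cxcr3 ligands and the last pair to the neutrophil attractants.
Cxcr6 (chr9:123806227-123806476, plus strand): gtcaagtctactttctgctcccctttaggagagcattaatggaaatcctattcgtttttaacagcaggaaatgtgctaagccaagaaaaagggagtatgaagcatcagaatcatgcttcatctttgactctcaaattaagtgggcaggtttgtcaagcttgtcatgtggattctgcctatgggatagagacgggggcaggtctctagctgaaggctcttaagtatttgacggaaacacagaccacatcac
Cxcl9 (chr5:92328080-92328329, minus strand): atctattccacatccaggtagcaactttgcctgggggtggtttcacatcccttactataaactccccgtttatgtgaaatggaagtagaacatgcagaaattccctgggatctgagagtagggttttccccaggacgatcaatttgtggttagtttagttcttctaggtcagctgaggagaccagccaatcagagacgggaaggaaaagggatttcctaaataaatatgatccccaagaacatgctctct
Cxcl10 (chr5:92348890-92349139, minus strand): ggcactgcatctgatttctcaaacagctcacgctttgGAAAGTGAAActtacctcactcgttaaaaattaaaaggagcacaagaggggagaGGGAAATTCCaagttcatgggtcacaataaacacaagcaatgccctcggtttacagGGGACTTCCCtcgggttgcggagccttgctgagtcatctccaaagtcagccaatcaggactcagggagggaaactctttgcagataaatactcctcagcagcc
Cxcl1 (chr5:90890995-90891244, plus strand): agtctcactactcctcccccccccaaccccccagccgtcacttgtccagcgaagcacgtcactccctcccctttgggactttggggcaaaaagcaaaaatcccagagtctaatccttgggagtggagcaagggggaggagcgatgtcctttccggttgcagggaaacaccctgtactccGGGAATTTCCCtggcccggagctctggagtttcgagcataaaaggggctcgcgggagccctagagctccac
Cxcl2 (chr5:90903649-90903898, plus strand): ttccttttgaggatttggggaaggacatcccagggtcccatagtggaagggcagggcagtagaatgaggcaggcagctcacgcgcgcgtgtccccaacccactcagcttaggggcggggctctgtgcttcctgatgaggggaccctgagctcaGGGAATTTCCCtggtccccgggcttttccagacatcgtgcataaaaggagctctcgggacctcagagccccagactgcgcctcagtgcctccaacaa

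The Cxcr6 window held no match to any of the 3 motifs, and neither did that of Cxcl9. The Cxcl10 window held an interferon element, GAAAGTGAAA, 213 bases before the start, and NF-kB matches, GGGAAATTCC and GGGACTTCCC, that began 159 and 103 bases before it. Cxcl1 and Cxcl2, which are neighbours on chromosome 5, had the same NF-kB stretch, read as overlapping matches on opposite strands, that began 71 and 97 bases before their starts. Cxcl14 held a STAT site, TTCTGAGAA, 191 bases before its start and an interferon element, GAAACAGAAA, 172 bases before it, while Cxcl12 and Cx3cl1 held none of the 3. Among 32851 promoters of the same length, 2.98% held the interferon element, 7.02% the STAT site and 3.90% the NF-kB consensus. A match describes letters only, and its absence says nothing about binding of a factor.

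**Figure D2:**
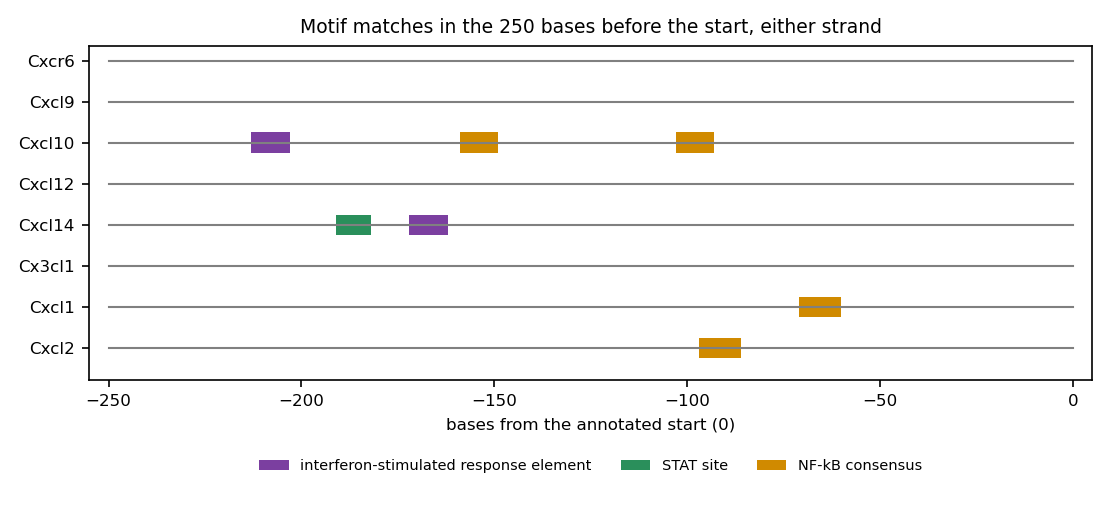
Positions of motif matches in the 250 bases before the annotated start of 8 genes (horizontal axis, bases from the start), coloured by motif. Cxcl10 carries 3 matches, Cxcl14 carries an interferon element and a STAT site, and Cxcl1 and Cxcl2 each carry an NF-kB stretch.

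Cxcr6 transcripts were more abundant in aged kidney. Log2 levels of its brighter probe, A_55_P1962209, on replicates 1, 2 and 3 were -2.03, -1.59 and -1.58 in young and -0.88, -0.69 and -0.67 in aged samples. Processed signals were 1073, 1345 and 968 in young and 2441, 2599 and 1692 in aged samples, all well above background. Every aged array was above every young array, and the gap between the ages was wider than the spread within either. The change was 0.98 ± 0.15 (SE, n = 3 arrays per age), a 1.98-fold rise with a 95% interval of 1.56 to 2.51, and the adjusted p was 0.0163 in the limma fit over all genes. Between arrays of the same slide column, the aged level was higher by 1.14, 0.90 and 0.90. In bulk kidney RNA, more cells that carry Cxcr6 and more Cxcr6 RNA per cell cannot be told apart.

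The second Cxcr6 probe, A_55_P2165199, gave a change of similar size. Its log2 levels were -2.31, -1.86 and -1.51 in young and -0.99, -0.63 and -0.85 in aged samples. The ages again did not overlap, and young replicate 1 was again the lowest array. Its change was 1.07 ± 0.22, a 2.10-fold rise with an interval of 1.47 to 2.98. In a limma fit over all 30821 probes, where 2.09% passed and 1.48% as higher in aged, the brighter probe had an adjusted p of 0.0277 and this one 0.0633, so 1 of 11 tested probes of the 9 genes was called. The Cxcr6 gene call ended without aged replicate 2 (change 0.95, limma adjusted p = 0.0757), without aged replicate 3 (0.94, adjusted p = 0.0581) and with no filter on dim probes (adjusted p = 0.125). Without young replicate 1 the Cxcr6 change was 0.84 and the adjusted p 0.0441.

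Cxcl16, the ligand of Cxcr6, did not pass the test. Its log2 levels were 1.32, 1.48 and 1.31 in young and 1.70, 1.41 and 1.47 in aged samples. The ages overlapped, since aged replicates 2 and 3 lay below young replicate 2. The change was 0.16 ± 0.12, or 1.12-fold with an interval of 0.920 to 1.35 (limma adjusted p = 0.558). The log2 ratio of Cxcr6 to Cxcl16 within an array was -3.34, -3.07 and -2.89 in young and -2.58, -2.10 and -2.15 in aged samples. Its level depends on how each probe responds, so only its difference between arrays is read. It was higher in aged samples by 0.82 with no overlap (two-sided exact permutation p = 0.1, the smallest this design allows, and 0.3 after Benjamini-Hochberg adjustment over 9 such quantities). The cleavage enzyme genes Adam10 and Adam17 changed by -0.25 ± 0.14 (limma adjusted p = 0.401) and 0.22 ± 0.15 (adjusted p = 0.520) and did not pass.

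Some T cell genes rose as Cxcr6 did. All 14 T cell markers were tested, and 5 were called higher and none lower, beside 1.98% of all genes called higher. An unadjusted p under 0.05 was found for 11 of the 14, beside 17.1% of all genes, and the list's median change was 0.78. The coreceptor Cd4 was the 1 marker with a change below 0 (-0.24 ± 0.31), and Cd8a changed by 0.085 ± 0.17. Neither passed, and both were named after their values were seen. The genes called were Cd2 (1.16 ± 0.16), an adhesion receptor, Cd5 (0.71 ± 0.10), an inhibitory receptor, the kinase Lck (0.71 ± 0.13), Cd3d (0.92 ± 0.19), a chain of the T cell receptor complex, and the costimulatory receptor Cd28 (0.92 ± 0.19). These calls ended in 3, 6, 7, 11 and 9 of 18 alternative settings. The summed level of the list was 2.60 to 2.95 in young and 3.91 to 4.81 in aged samples, and 12 of 14 markers were above background on all 6 arrays, the exceptions being Cd247 and Cd8b1. Relative to the median T cell marker of the same array, log2 Cxcr6 was 0.96, 1.16 and 1.23 in young and 0.97, 1.05 and 1.74 in aged samples. That ratio overlapped between the ages and differed by 0.14 (exact permutation p = 0.8), with aged replicate 3 the highest. Relative to Cd3e, a signalling chain of the T cell receptor complex, the difference was 0.26 (exact permutation p = 0.4).

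Of 13 tested genes of resident memory T cells, natural killer T cells and innate lymphoid cells, 3 were higher and none lower, with a median of 0.13. Il7r, the survival receptor for interleukin 7, rose by 1.95 ± 0.15 and was above background on 2 of 3 young arrays. Il2rb, a shared chain of the interleukin 2 and 15 receptors, rose by 0.89 ± 0.15. Runx3, a transcription factor of cytotoxic and resident T cells, rose by 0.94 ± 0.18 and was above background on 2 of 3 aged arrays. With the mean of its probes in place of the brightest, Runx3 changed by 0.26 (limma adjusted p = 0.641). Il7r passed the detection filter only through the aged arrays and Runx3 only through the young arrays, and with a filter on all 6 arrays neither was tested and 1 gene of the list, Il2rb, was called. The calls of Il2rb and Runx3 ended in 8 of 18 and 8 of 17 settings and that of Il7r in 0 of the 17 in which it was tested. Cd69, Il18r1 and Pdcd1 were above background on 2 arrays of each age and were not tested. Natural killer cell markers had a median of 0.041 over 7 tested, with Eomes alone called higher (1.23 ± 0.18, ended in 4 of 18 settings). Changes were below 0 without passing for 3 of the 7, Gzma (-0.75 ± 0.34), Prf1 (-0.36 ± 0.22) and Ncr1 (-0.072 ± 0.36). The summed level of the list was 1.95 to 2.33 in young and 2.27 to 3.22 in aged samples. Its brightest probe, Nkg7, changed by 0.70 ± 0.21 without passing. Apart from Eomes, these genes were named after their values were seen. Klrb1c, Klre1 and Klrk1 did not reach the detection filter, which asks for a probe above background on all 3 arrays of an age. The part of these cells in the Cxcr6 result was not tested.

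**Figure D3:**
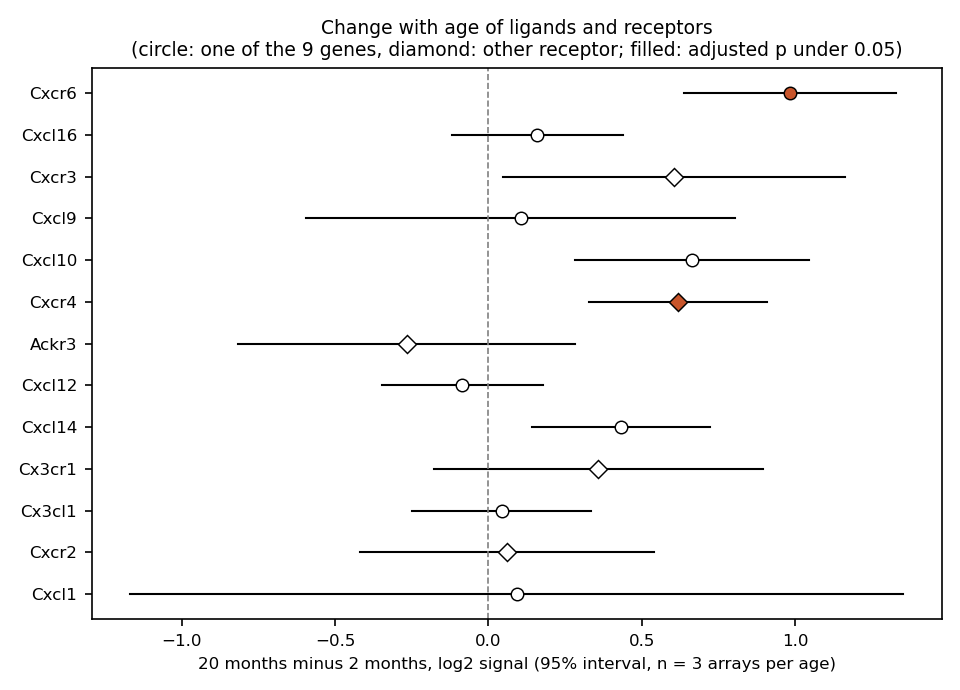
Change from 2 to 20 months on the log2 scale (horizontal axis) with its 95% interval for the 8 tested genes (circles) and for receptors of the ligands (diamonds), filled where the adjusted p is under 0.05. Cxcr6 and Cxcr4 are filled, Cxcl10 and Cxcl14 have intervals above 0 without passing, and the interval of Cxcl1 runs from -1.17 to 1.35.

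The Cxcr3 ligands Cxcl10 and Cxcl9 spread differently. Log2 levels of Cxcl10, an attractant of T cells and natural killer cells, were -0.093, 0.22 and 0.48 in young and 0.82, 1.04 and 0.73 in aged samples. All aged arrays were above all young arrays, the nearest being young replicate 3 and aged replicate 3. The change of 0.66 ± 0.16 (1.58-fold, interval 1.22 to 2.06) did not pass after adjustment (unadjusted p = 0.00399, limma adjusted p = 0.0807). Cxcl10 did pass when probes had to be above background on all 6 arrays (adjusted p = 0.0473), with a trended robust variance (adjusted p = 0.0208) and with array weights (adjusted p = 0.0460), in a range of 0.0208 to 0.278 over 18 settings. Between arrays of the same slide column the difference was 0.91, 0.82 and 0.26.

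Cxcl9, which lies in the same cluster on chromosome 5, showed no steady difference. Its brighter probe, A_55_P1977038, had log2 levels of -0.10, 0.58 and 0.57 in young and 1.04, 0.41 and -0.10 in aged samples. Aged replicate 1 was the highest array, while aged replicate 3 and young replicate 1 were lowest and nearly equal. The other probe, A_51_P461665, gave -1.67, -0.85 and -0.72 in young and -0.28, -0.69 and -1.64 in aged samples. Both probes placed aged replicate 1 highest and young replicate 1 lowest. The change was 0.11 ± 0.30 on the first probe (limma adjusted p = 0.899) and 0.21 ± 0.39 on the second (adjusted p = 0.833 over all probes). The interval of the first, 0.662 to 1.75-fold, takes in the estimate for Cxcl10. Without young replicate 1 the Cxcl9 change was -0.12 and without aged replicate 1 it was -0.19. Cxcl9 varied more within an age than 95.7% of genes tested, with a pooled SD of 0.49 on the log2 scale beside a median of 0.16. The within-array ratio of Cxcl10 to Cxcl9 differed by 0.56 with overlapping ages (exact permutation p = 0.3).

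Cxcr3, the receptor of both ligands, had log2 levels of -3.07, -2.54 and -2.12 in young and -1.69, -2.08 and -2.14 in aged samples. Aged replicate 3 fell just below young replicate 3, and the change of 0.61 ± 0.24 did not pass (limma adjusted p = 0.254). The ratio of Cxcr3 to Cxcl10 within an array differed by -0.057 (exact permutation p = 0.8). Ifng, the inducer of both ligands, was above background on 2 of 3 arrays of each age and was not tested. Its log2 levels were -5.18, -4.76 and -5.17 in young and -4.25, -4.25 and -4.80 in aged samples. None of 19 tested genes of the interferon gamma response passed with limma, and 3 had an unadjusted p under 0.05, as did 17.1% of all genes. The 3 were Gbp5 (0.43 ± 0.14), Psmb9 (0.34 ± 0.14) and Psmb8 (0.29 ± 0.12), named after their values were seen, and the list's median was 0.088. Gbp5 was dim, above background on 2 of 3 aged arrays, and passed the detection filter only through the young arrays. Macrophage and monocyte markers had 1 of 11 called higher, the complement subunit C1qc (0.68 ± 0.14, a call that ended in 11 of 18 settings). Changes were above 0 for all 11, with a median of 0.43. An unadjusted limma p under 0.05 was found for 6 of the 11, beside 17.1% of all genes. All aged arrays were above all young arrays for 6, beside 10.4% of all genes. The list's summed level was 49.0 to 57.8 in young and 62.8 to 72.7 in aged samples. The brightest probe in that sum, Itgam, changed by 0.16 ± 0.13 without passing and was chosen after its value was seen. Cd163 did not reach the detection filter. Dendritic cell markers had 3 of 7 higher, Itgax (0.99 ± 0.13), Ccr7 (1.28 ± 0.19) and Flt3 (0.72 ± 0.13), with calls that ended in 2, 2 and 10 of 18 settings and a summed level of 1.04 to 1.39 in young and 1.98 to 2.10 in aged samples. The part of these cells in the Cxcl10 values was not tested.

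Cxcl12 was bright and nearly level across the 6 arrays. Its brighter probe, annotated to transcript NM_001012477, had log2 levels of 2.63, 2.92 and 2.82 in young and 2.66, 2.71 and 2.75 in aged samples. The aged values all lay within the range of the young ones. The change was -0.085 ± 0.11 (0.943-fold, interval 0.786 to 1.13, limma adjusted p = 0.760). The probe annotated to transcript NM_021704 had 0.23, 0.69 and 0.43 in young and 0.83, 0.46 and 0.64 in aged samples, a change of 0.20 ± 0.16 (adjusted p = 0.591 over all probes). The probes differed in sign, and their within-array ratio differed by 0.28 with overlapping ages (exact permutation p = 0.2). Whether either probe reads a single transcript form is not given in the sources used here.

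Cxcr4, the signalling receptor of Cxcl12, rose. Its log2 levels were -2.96, -2.63 and -2.97 in young and -2.26, -2.26 and -2.19 in aged samples, and every aged array was above every young array. The change was 0.62 ± 0.12 (limma adjusted p = 0.0428), a call that ended in 12 of 18 settings, with an adjusted p of up to 0.174. Cxcr4 relative to Cxcl12 within an array was higher by 0.70 with no overlap (exact permutation p = 0.1, the smallest possible). That exact permutation p was 0.3 after Benjamini-Hochberg adjustment over the same 9 quantities. Ackr3, which takes up Cxcl12 without signalling through G proteins, changed by -0.27 ± 0.24 (limma adjusted p = 0.620). Dpp4, a protease that trims Cxcl9, Cxcl10 and Cxcl12, changed by -0.35 ± 0.10 (limma adjusted p = 0.116), with all aged arrays below all young arrays, and was chosen after its value was seen.

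Cxcl14 was modestly higher on every aged array. Log2 levels were -0.33, -0.11 and -0.074 in young and 0.12, 0.24 and 0.41 in aged samples. The ages did not overlap, and the difference within slide columns was 0.45, 0.36 and 0.48. The change of 0.43 ± 0.13 (1.35-fold, interval 0.14 to 0.72 on the log2 scale) did not pass after adjustment (unadjusted p = 0.00910, limma adjusted p = 0.128). It stayed between 0.35 and 0.60 over 18 settings and passed in 0 of them, with an adjusted p of 0.0735 to 0.403.

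Cx3cl1, a membrane-bound attractant on endothelial and epithelial cells, showed no age difference beyond its spread. Log2 levels were 1.80, 1.86 and 1.86 in young and 2.04, 1.66 and 1.94 in aged samples. The young arrays lay close together, and aged arrays fell on both sides of them. The change was 0.043 ± 0.13 (1.03-fold, interval 0.842 to 1.26, limma adjusted p = 0.900). Its receptor Cx3cr1, a marker of kidney macrophages and patrolling monocytes, had -0.16, -0.30 and 0.60 in young and 0.43, 0.24 and 0.55 in aged samples. Young replicate 3 was the highest of all 6, and the change of 0.36 ± 0.23 did not pass (limma adjusted p = 0.485). Within an array, Cx3cr1 relative to Cx3cl1 differed by 0.31 with overlapping ages (exact permutation p = 0.4). Endothelial markers passed in 0 of 10 with limma (0 with an unadjusted p under 0.05), and their summed level was 28.0 to 29.0 in young and 27.9 to 30.7 in aged samples. Of 10 fibroblast and pericyte markers 2 fell, the collagen genes Col1a1 (-0.85 ± 0.12) and Col3a1 (-0.96 ± 0.15), each a call that ended in 5 of 18 settings. Changes were above 0 without passing for 4, Lum (0.40 ± 0.14), Pdgfra (0.12 ± 0.14), Pdgfrb (0.059 ± 0.17) and Dcn (0.028 ± 0.14), named after their values were seen. The list's median was -0.050. Its summed level, to which bright collagen probes contribute, was 46.2 to 55.0 in young and 36.6 to 42.4 in aged samples. The part of endothelial cells, fibroblasts and pericytes in the Cxcl12 and Cx3cl1 values was not tested.

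The neutrophil attractants were dim. Cxcl1 had log2 levels of -2.35, -4.01 and -3.40 in young and -2.54, -2.64 and -4.30 in aged samples. Processed signals ran from 137 to 854, and aged replicate 3 was not well above background. High and low arrays occurred at both ages, and the pooled SD of 0.91 on the log2 scale exceeded that of 99.5% of genes tested. The change was 0.092 ± 0.54 (limma adjusted p = 0.952), with an interval of 0.445 to 2.55-fold, so a change of the size seen for Cxcr6 was not detectable. Cxcl2 was well above background on 0 of 6 arrays. Its processed signals were 12.1, 12.1 and 27.7 in young and 17.1, 26.1 and 34.1 in aged samples. The lowest signals called well above background were 32.6, 36.1 and 69.2 at 2 months and 72.6, 93.4 and 155 at 20 months, so no fold is given.

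Cxcr2, the receptor of both, had log2 levels of -4.36, -4.32 and -4.32 in young and -4.02, -4.01 and -4.79 in aged samples. Aged replicate 3 was not well above background, and the change was 0.060 ± 0.21 (limma adjusted p = 0.916). Neutrophil markers passed in 0 of 5 with limma (0 with an unadjusted p under 0.05), and their summed level was 11.3 to 12.3 in young and 11.6 to 13.6 in aged samples. That sum mostly follows its brightest probe, Csf3r, which changed by 0.018 ± 0.10 and was chosen after its value was seen. Mpo and Elane did not reach the detection filter. Of 17 tested genes of NF-kB signalling and acute inflammation, 1 rose, Nfkbie, an inhibitor of NF-kB (0.52 ± 0.10, limma adjusted p = 0.0412, ended in 10 of 18 settings), and the median was 0.24. Unadjusted p-values under 0.05 were found for 6 of the 17, beside 17.1% of all genes. All aged arrays were above all young arrays for 8, beside 10.4% of all genes. Among those 8 was the monocyte attractant Ccl2 (1.18 ± 0.27, limma adjusted p = 0.0607), chosen after its value was seen. Il1a, Il6, Tnf, Sele, Ptgs2 and Ccl20 did not reach the detection filter.

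**Figure D4:**
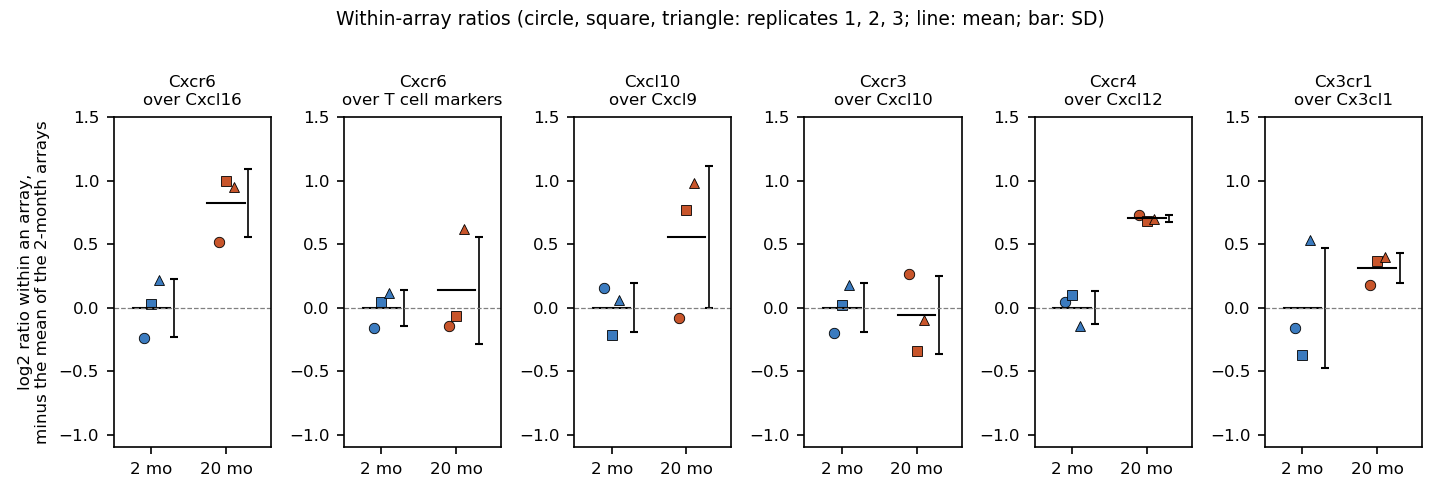
Log2 ratio of a receptor to its ligand, or of another gene pair, within each array (vertical axis, minus the mean of the 2-month arrays) for the 3 arrays of each age, with mean and SD. Cxcr6 over Cxcl16 and Cxcr4 over Cxcl12 separate the ages, with mean differences of 0.82 and 0.70, while the other 4 ratios overlap.

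Of the other CXC and XC ligands outside the 9 genes, 4 were tested and 3 rose. Cxcl13, the B cell attractant, rose by 2.99 ± 0.27, and Xcl1, an attractant of cross-presenting dendritic cells, by 0.87 ± 0.17. Ppbp, the precursor of a platelet chemokine that acts on Cxcr2, rose by 0.69 ± 0.14. The remaining tested gene, Pf4, another platelet chemokine, changed by 0.65 ± 0.18 (limma adjusted p = 0.110). The calls of Xcl1 and Ppbp ended in 11 and 9 of 18 settings and that of Cxcl13 in 1, the fit with no filter on dim probes (limma adjusted p = 0.0664). Cxcl3, Cxcl5, Cxcl15 and Cxcl17 did not reach the detection filter, and no probe was named Cxcl11. Of the 5 other receptors tested, 1 rose, Cxcr4, and their median was 0.36. Of 7 tested genes of cleavage and binding, 1 rose, Mmp12, a macrophage elastase (0.82 ± 0.17, ended in 10 of 18 settings), and the median was -0.056.

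**Figure D5:**
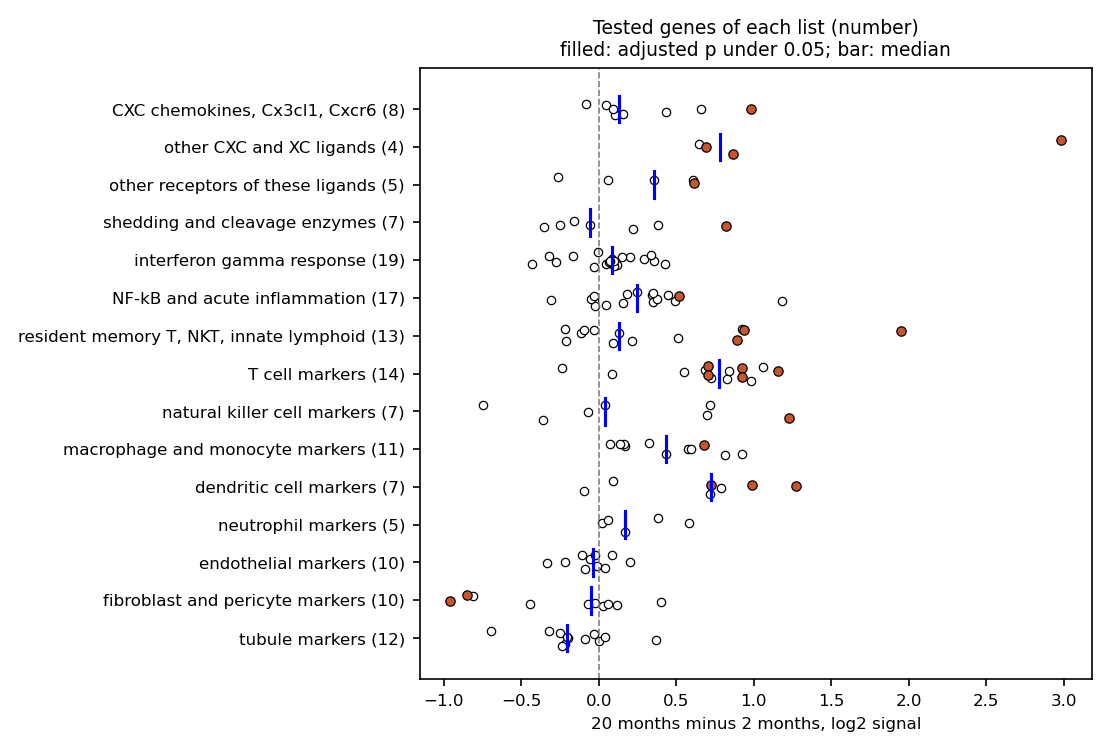
Change from 2 to 20 months (horizontal axis, log2) of each tested gene in 15 lists, with the number tested in brackets, filled where the adjusted p is under 0.05 and with the list median as a bar. The 8 tested genes have a median of 0.13 with Cxcr6 alone filled, and the T cell markers have a median of 0.78.

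Further marker lists were B cells, adipocytes and urothelium. Of 5 B cell markers tested Ms4a1 was higher (1.35 ± 0.28, ended in 9 of 18 settings), 3 had changes below 0 without passing, and the median was -0.33. Their summed level was 5.27 to 6.65 in young and 3.86 to 6.47 in aged samples. Of 7 adipocyte markers Plin4 was higher (1.78 ± 0.32, ended in 6 of 18 settings), with a median of 1.29 and a summed level of 16.5 to 32.3 in young and 32.2 to 35.5 in aged samples. Of 5 urothelium markers Upk3b was lower (-1.79 ± 0.23, ended in 1 of 18 settings), with a median of -1.37. Podocyte and tubule markers passed in 0 of 6 and 0 of 12 with limma (0 and 3 with an unadjusted p under 0.05, beside 17.1% of all genes). The part of these cells in the values above was not tested.

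Genes whose levels followed Cxcr6 and Cxcl16 most closely over the 6 arrays were taken from 13953 genes with values on all arrays, leaving out clone and predicted names. The Pearson correlation with Cxcr6 was 0.999 for Nt5c2, a cytosolic nucleotidase, 0.999 for Cyp4a12b, a fatty acid hydroxylase, and 0.995 for Ust, a sulfotransferase. Of these Cyp4a12b passed the test (change 0.89 ± 0.13, limma adjusted p = 0.0148). With Cxcl16 the correlation was 0.990 for Lbh, a transcription cofactor, 0.978 for Lcp1, an actin-bundling protein of leukocytes, and 0.974 for F8, a coagulation factor. These are the highest of many correlations over 6 arrays that share 2 ages and 1 slide, and they describe these arrays only.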

How the data were processed

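Kidney RNA of 3 young and 3 aged samples was labelled with Cy3 from random nonamers, per the labels' protocols, so either strand can carry label. Per the file headers, intensity was read on a G2505C scanner at 3 micron from design 028005 (annotated on mm9) with Agilent Feature Extraction 11.5.1.1, whose processed signal intensity is background-subtracted and spatially detrended within each array. The authors' deposited log2 values match the log2 processed signal minus a constant per array, close to its 75th percentile (correlation of at least 0.999998, column medians -4.23 to -3.96), and served as an alternative.

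Control spots and outlier-flagged spots were left out, spots of a probe averaged on the log2 scale, and each array's 75th percentile over non-control spots subtracted. A gene was represented by its brightest probe and tested where that probe was well above background (more than 0.5 of its spots) on all arrays of at least 1 age. This left 30821 probes and 14545 genes. Symbols, gene order and promoter sequences with their coordinates came from RefSeq on GRCm38.p6, another build than the array's, and no position of a probe is given. The ages were compared with limma 3.58.1 (lmFit, eBayes, two-sided) in R 4.3.3, with Benjamini-Hochberg adjustment and a threshold of 0.05, after the scripts were tested on simulated data. Within-array ratios and the share of probes above background were compared by exact permutation. Figures used matplotlib 3.10.9.

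The 9 genes, the lists and the tests were chosen with earlier results of these data known. All 9 genes were named, as were list genes past the threshold, the receptors Cxcr2, Cxcr3, Cxcr4, Cx3cr1 and Ackr3, and Ifng, Adam10 and Adam17. For likeness, the 3 genes with the highest correlation were named. Alternatives were quantile and median scaling, the authors' values, normexp with offset 50 on the median spot signal (the mean was not used here), filters, outlier spots kept, averaging a gene's probes, other variance models, array weights, a replicate block, a 2-fold rule without adjustment and leaving out each array. Slide was not fitted as a block, since there was 1.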

Additional observations from a re-analysis of the deposited data

How the results depend on the processing

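The number of arrays and, for dim probes, signal over background limit all values. Over 18 alternatives Cxcr6 stayed higher in aged kidney, by 0.84 to 1.17, and its gene call ended in 4. These were the 3 given above and the 2-fold rule without adjustment, which its 1.98-fold rise missed. The 1.17 came from probe A_55_P2165199 with normexp, where A_55_P1962209 gave 0.95. In the fit over all probes, the call of A_55_P1962209 ended in 7 of 17 settings, while A_55_P2165199 passed in 7 of 17. Cxcl10 stayed higher, by 0.52 to 0.80. With no filter on dim probes limma called 0 of the 9 genes (3 had an unadjusted p under 0.05 in the reported fit), 16 genes in all, 105 probes and 1 gene of the other lists. The 2-fold rule called 0 of the 9 and 14 genes of the other lists, against 24 as reported. A filter on all 6 arrays, a trended robust variance and array weights each called 2 of the 9, Cxcr6 and Cxcl10. The count over all genes was 491 as reported, 801 with median centring (433 higher, 368 lower), 304 with normexp (214 higher, 90 lower) and 141 to 925 with an array left out, the highest without aged replicate 1. Over all probes it was 643 as reported, 1049 with array weights and 310 to 2042 with an array left out. Median centring called 44 genes of the other lists, and leaving out an array 6 to 18, with 0 to 1 of the 9 genes. The cause of these shifts was not tested.

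Changes near 0 reversed. Normexp gave -0.035 for Cxcl9 and -0.11 for Cx3cl1, and the mean of the Cxcl12 probes was 0.056. With an array left out the change ran from -0.19 to 0.38 for Cxcl9 (on its other probe -0.086 to 0.59), -0.29 to 0.66 for Cxcl1, -0.038 to 0.15 for Cx3cl1 and -0.073 to 0.32 for Cxcr2. It kept its sign but moved widely for Ackr3 (-0.51 to -0.022), Cx3cr1 (0.18 to 0.63), Cxcr3 (0.36 to 0.83) and Cxcl16 (0.072 to 0.22), none of them called.

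Deviations of same-numbered samples from their group means correlated at 0.062, -0.092 and 0.10 for numbers 1, 2 and 3, so the numbers were not taken to pair the samples, although arrays of 1 number share a slide column. With the replicate block limma called 266 genes in all and 10 of the other lists, and Cxcr6 still passed (change 0.98, adjusted p = 0.0265).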
